A study of Mus musculus with 25 samples.

Results

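The genes described are 7 transcripts that tissue macrophages make: C1qa, C1qb and C1qc, which encode the A, B and C chains of complement C1q, Csf1r, Cd68, Lyz2 and Cd163. They were taken by name from the symbol column of the bead table, and all 7 were among the 11227 genes tested, of 17899 named genes on the array. The table holds 11 probes for them, 2 of which carry Lyzs, an older symbol with the Entrez gene number of Lyz2. Of these, 10 passed the detection filter. The 7 genes are described over 25 arrays of mouse intestine in 8 groups.

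All mice were C57Bl/6 females, 6 to 8 weeks old before surgery. A 2.5 cm stretch of ileum, 3 cm upstream of the ileocecal valve, was cut out and joined back to the ileum as a loop, the colon being left in place, and tissue was taken 5 weeks later. A self-filling loop retains intestinal content, whereas a self-emptying loop drains. From wild type mice there were 3 arrays of ileum and 3 of cecum after a sham operation, which was a laparotomy only, as well as 4 of self-emptying and 3 of self-filling loops. Mice labelled IL10 knockout and mice labelled TLR4 knockout were each represented by 3 arrays per loop type. IL10 is a cytokine that restrains macrophage activation, and TLR4 is the receptor for bacterial lipopolysaccharide. The labels do not say that the arrays of a group came from separate animals, so each p-value rests on the spread among arrays, which may be technical.

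C1q is the recognition subunit of the classical complement pathway: it binds antibody complexes and dying cells and carries the proteases C1r and C1s. Most complement proteins come from the liver, but C1q comes mainly from macrophages, and those of the gut wall make it abundantly. They depend on signals through Csf1r, are replaced from blood monocytes and clear dead cells and bacteria that cross the epithelium.

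The start regions of 4 of the genes are shown because C1qb and C1qc were the pair that moved most closely together and because Cd68 and Lyz2 are the myeloid genes set against them. Each is 250 bases before and 50 bases after the gene's start, from RefSeq on build GRCm38.p6, 5′ to 3′ in the direction of the gene. Capitals mark GAGGAA (a core of PU.1 and other ETS factor sites), TGCTGA (a core of MAF sites) and TGACTCA (an AP-1 site), on either strand.
C1qb, chr4:136886151-136886450, minus strand: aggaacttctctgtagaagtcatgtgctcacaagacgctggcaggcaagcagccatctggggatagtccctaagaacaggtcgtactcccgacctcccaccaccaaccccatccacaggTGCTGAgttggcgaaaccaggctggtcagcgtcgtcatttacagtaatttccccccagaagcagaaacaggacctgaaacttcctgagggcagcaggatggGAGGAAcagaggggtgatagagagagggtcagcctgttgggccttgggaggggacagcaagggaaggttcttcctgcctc
C1qc, chr4:136892865-136893164, minus strand: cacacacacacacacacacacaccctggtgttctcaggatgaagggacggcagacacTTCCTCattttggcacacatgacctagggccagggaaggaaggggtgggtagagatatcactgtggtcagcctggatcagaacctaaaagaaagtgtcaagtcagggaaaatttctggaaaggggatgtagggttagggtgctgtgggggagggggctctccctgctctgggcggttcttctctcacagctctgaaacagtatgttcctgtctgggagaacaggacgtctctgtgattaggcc
Cd68, chr11:69666121-69666420, minus strand: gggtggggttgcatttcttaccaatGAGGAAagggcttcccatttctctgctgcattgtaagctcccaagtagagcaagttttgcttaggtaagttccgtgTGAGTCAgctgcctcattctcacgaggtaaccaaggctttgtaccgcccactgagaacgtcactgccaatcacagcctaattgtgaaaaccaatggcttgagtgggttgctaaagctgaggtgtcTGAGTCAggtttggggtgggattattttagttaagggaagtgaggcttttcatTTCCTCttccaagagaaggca
Lyz2, chr10:117282223-117282522, minus strand: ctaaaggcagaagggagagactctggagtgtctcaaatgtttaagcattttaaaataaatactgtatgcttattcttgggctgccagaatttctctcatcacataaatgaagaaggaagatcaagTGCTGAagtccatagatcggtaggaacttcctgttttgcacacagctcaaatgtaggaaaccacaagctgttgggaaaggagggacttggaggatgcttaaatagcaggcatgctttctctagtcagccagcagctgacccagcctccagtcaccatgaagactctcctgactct
GAGGAA or its reverse complement stood in the C1qb, C1qc and Cd68 windows, and in 28.3% of 32851 promoter windows of this length. TGCTGA stood in the C1qb and Lyz2 windows and in 19.5% of all windows. TGACTCA stood at 2 places in the Cd68 window and in 5.2% of all windows. TATAAA, searched as well, was in none of these 4 windows and in 13.6% of all. A match of letters is a description and not a binding site.

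Signals are average bead intensities, corrected for background, quantile-normalized and given on a log2 scale, where 1 unit is a change by a factor of 2. A probe counted as detected on an array at a detection p under 0.05. Each array detected 47.2 to 53.0% of its probes. The typical probe was read from 33 to 39 beads (median per array), and precision is limited by how many arrays a group holds. The ileal genes Sis, Fabp6, Defa5 and Apoa1 were bright in every ileum and loop group, and the large intestinal genes Aqp8 and Insl5 were bright in the cecum. Tlr4 was detected on 1 of 6 arrays labelled TLR4 knockout. All 6 arrays with the label IL10 knockout detected Il10, and none of the other 19 did, at 7.34 ± 0.10 (SD, n = 3) with content retained and 6.65 ± 1.01 (SD, n = 3) with content drained. This probe does not show a loss of the transcript. The sources used here do not say whether it lies in the deleted part, and IL10 knockout hereafter means the arrays with that label.

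The probes of C1qa, C1qb and C1qc, and the brightest probes of Csf1r and Lyz2, were detected on all 25 arrays. Cd68 was detected on 22 of 25. Cd163, the scavenger receptor for haptoglobin-bound haemoglobin, was near background: its brighter probe was detected on 7 arrays and its other probe on 0. No array of the wild type or IL10 knockout self-emptying loops detected it, so its values below are given with little weight. In whole tissue, fewer macrophages and less RNA per macrophage cannot be told apart.

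C1qb, the B chain of C1q, ran from 6.25 to 10.06 over the 25 arrays. In wild type self-filling loops it was 7.25, 7.92 and 6.25. In wild type sham ileum it was 8.43, 9.58 and 8.29, and in wild type self-emptying loops 7.48, 8.47, 9.45 and 8.15. The self-filling group had the lowest mean of the 8, all its values lay below the sham ileum values, and 1 of them lay above the lowest wild type self-emptying value. IL10 knockout self-filling loops held the highest values, 10.06, 9.99 and 9.68, above every array of any other group. The IL10 knockout self-emptying loops gave 9.21, 7.64 and 9.08. TLR4 knockout loops stood between these extremes, with 7.75, 8.85 and 8.73 when self-emptying and 8.60, 8.34 and 8.07 when self-filling.

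C1qc, the C chain, followed the same order at both ends. Its values were 7.16, 7.76 and 6.09 in wild type self-filling loops and 9.62, 9.50 and 9.42 in IL10 knockout self-filling loops. Sham ileum gave 8.21, 9.42 and 8.25. C1qa, the A chain, was 6.19, 6.03 and 5.26 in wild type self-filling loops, 6.64, 7.49 and 6.56 in sham ileum and 7.54, 7.71 and 7.46 in IL10 knockout self-filling loops. All 3 C1q genes therefore had their lowest mean in wild type and their highest in IL10 knockout self-filling loops.

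Csf1r, the receptor for the growth factors that keep macrophages alive, was 5.94, 5.92 and 5.35 in wild type self-filling loops. It was 6.58, 7.03 and 6.71 in sham ileum and 6.50, 6.90 and 7.22 in IL10 knockout self-filling loops. The wild type self-filling arrays lay below all arrays of both groups. Cd68, a lysosomal membrane glycoprotein of phagocytes, was 4.47, 4.96 and 4.61 in wild type self-filling loops, and 2 of these 3 arrays did not detect it. It was 7.30, 7.04 and 5.89 in IL10 knockout self-filling loops, where every array detected it.

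Lyz2, the lysozyme of macrophages and neutrophils, was 9.12, 8.52 and 7.43 in wild type self-filling loops and 11.37, 11.40 and 11.05 in IL10 knockout self-filling loops. Sham ileum gave 9.78, 11.42 and 9.91, and sham cecum 11.14, 11.19 and 11.25. The cecum values were close to those of IL10 knockout self-filling loops. Ranked by mean, the IL10 knockout self-filling loop came first and the wild type self-filling loop last for C1qa, C1qb, C1qc, Csf1r, Cd68 and Lyz2. Most neighbours in that order overlapped: 5 of 7 neighbouring pairs of groups for C1qb, 6 of 7 for C1qc, Csf1r and Cd68, and 7 of 7 for C1qa and Lyz2.

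**Figure D1:**
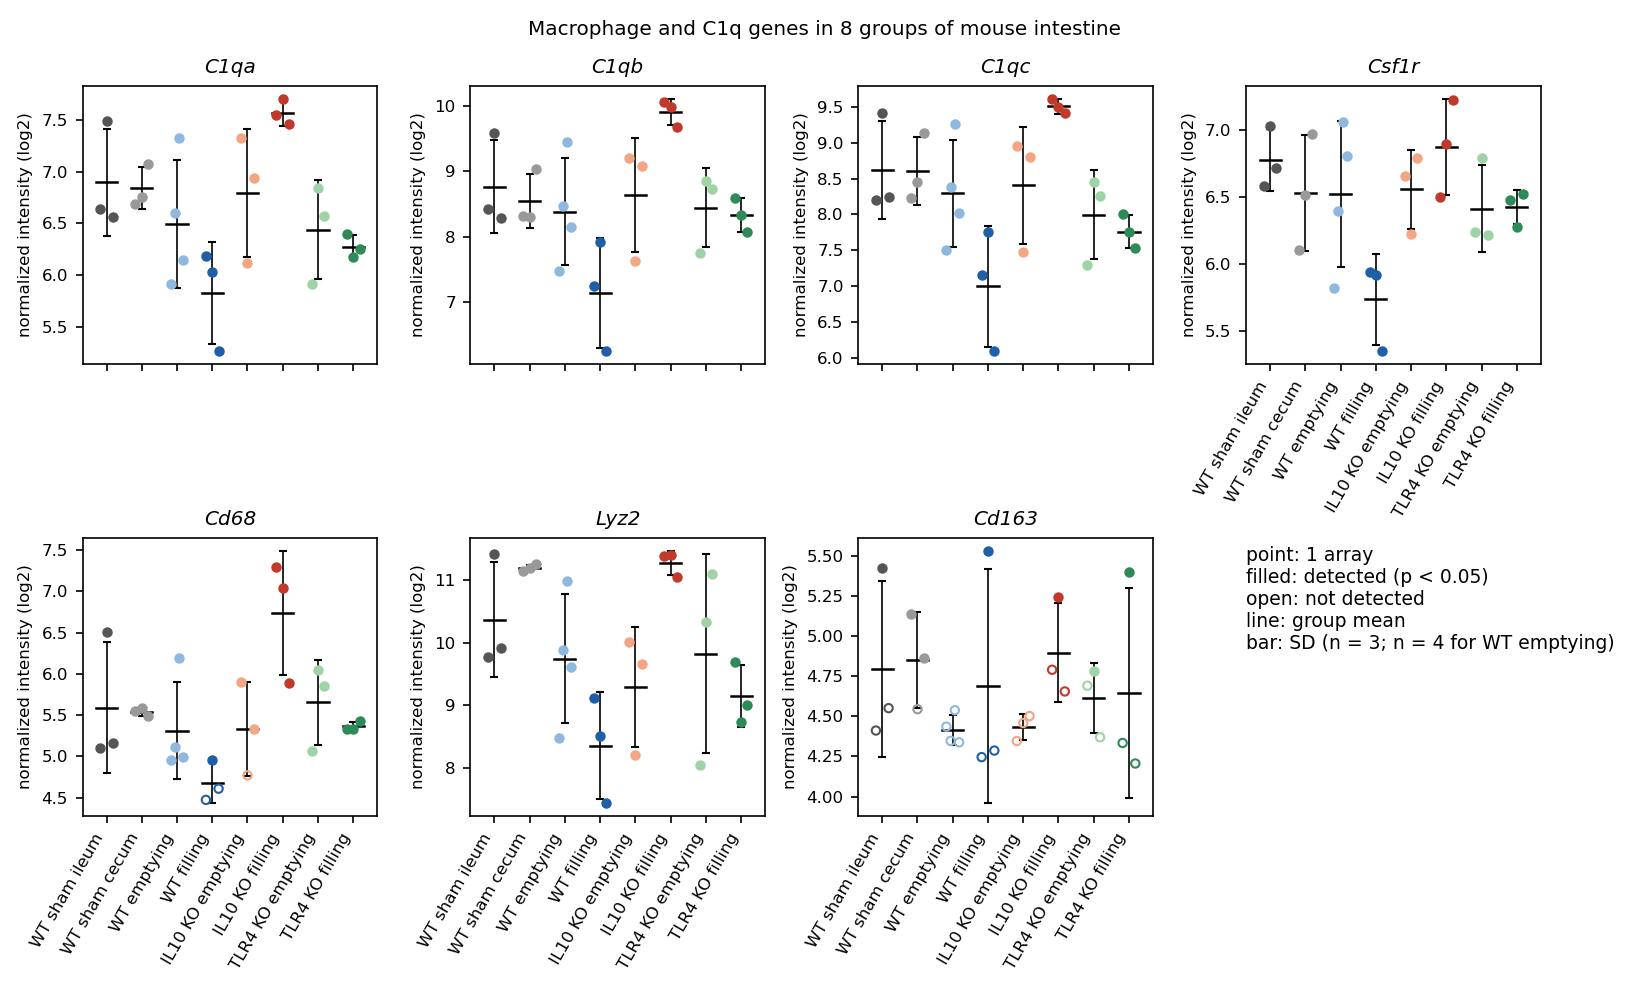
Normalized intensity (log2) of the 7 genes in the 8 groups. Each point is 1 array, filled where the probe was detected, with the group mean (line) and SD (bar, n = 3, or n = 4 for wild type self-emptying loops), and the IL10 knockout self-filling loops hold the highest mean of all 7 genes and the wild type self-filling loops the lowest of 6, Cd163 being the exception.

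The first question is whether these genes changed with retention of content in wild type ileum. The sham operation was a laparotomy only, so a comparison with sham ileum takes loop surgery and retention together. The comparison at equal surgery, with self-emptying loops, is given further below. In wild type self-filling loops, 5 of the 7 genes fell against sham ileum, and 9.22% of all genes tested fell in this comparison. Lyz2 fell by 2.01 on the log2 scale (SE 0.67, adjusted p = 0.0383), C1qb by 1.63 (SE 0.49, adjusted p = 0.0242) and C1qc by 1.62 (SE 0.47, adjusted p = 0.0207). C1qa fell by 1.07 (SE 0.34, adjusted p = 0.0333) and Csf1r by 1.04 (SE 0.28, adjusted p = 0.0141). All adjusted p-values are from limma, after Benjamini and Hochberg over the 11227 genes, with 0.05 as threshold. Cd68 differed by -0.91 (adjusted p = 0.107) and Cd163 by -0.11 (adjusted p = 0.841), neither past the threshold. These 5 calls rest on single arrays: the count was 0 without sham ileum replicate 2, the highest of its group for all 7 genes, and 0 without self-filling replicate 3, the lowest of its group for C1qa, C1qb, C1qc, Csf1r and Lyz2. It was also 0 with the spread of signal on each array as a covariate.

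Array codes in the sample descriptions fall into runs of 8, which no source says are slides. Within run 1 (2 self-filling arrays and 1 sham ileum array) the 6 genes other than Cd163 differed by -0.39 to -0.96. Within run 3 (1 array each) they differed by -0.55 to -2.47. Run 2 held no wild type self-filling array. Signals on its 6 arrays were less spread (95th percentile over median, 10.8 for the middle array against 15.3 in run 1). Without those arrays the count was 0, an alternative chosen after seeing the data.

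Other macrophage genes were also lower in wild type self-filling loops than in sham ileum. These are the same arrays, and how far the list counts depend on single arrays was not tested. The mean level of the pan-macrophage list was 6.00 to 6.57 over self-filling and 6.77 to 7.45 over sham ileum arrays. Of 16 pan-macrophage genes tested, 6 fell and 0 rose, with a median of -0.60 against 0.04 over all genes. Fibroblast, smooth muscle, endothelial, T cell and adipocyte genes had medians as low or lower, given below. The pan-macrophage genes that fell include Apoe (-1.55), a lipid carrier that macrophages secrete, Aif1 (-1.53) and Fcer1g (-1.49), the signalling chain of Fc receptors. Of 18 resident macrophage genes, 5 fell, among them Mertk (-2.08), a receptor for dying cells, its ligand Gas6 (-1.17) and the iron exporter Slc40a1 (-1.31). None of 16 inflammatory monocyte genes passed in either direction. Of 11 CSF1 receptor ligands and macrophage factors 1 fell and 1 rose, with a median of -0.15. Maf, a transcription factor of resident macrophages, fell by 1.18, and Runx1, a transcription factor of blood cell development, rose by 0.60. Among C1 partners, C2, the protease cleaved by C1s, fell by 1.70, and 1 of 5 tested genes passed.

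Genes of other cell types passed here too. Of 7 T cell genes, 5 fell, led by Cd3g (-2.09). Of 6 adipocyte genes, 4 fell, led by Cfd (-5.49), and the mean level of that list was 4.76 to 5.30 over self-filling arrays and 7.09 to 9.44 over sham ileum arrays. Smooth muscle genes fell in 2 of 8 cases, led by Myh11 (-1.94). Of 7 endothelial genes 2 fell, with a mean list level of 5.41 to 6.01 over self-filling and 6.25 to 6.43 over sham ileum arrays. Of 8 fibroblast genes 1 fell. Medians were -3.19 for adipocyte, -1.08 for T cell, -0.69 for endothelial, -0.63 for smooth muscle and -0.60 for fibroblast genes. They were 0.26 for epithelial, 0.51 for mast cell and 0.53 for neutrophil genes. The part of these cell types in the fall of the C1q genes was not tested.

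Against self-emptying loops of wild type mice, which had the same surgery, 0 of the 7 genes passed, where 11.5% of all genes did. At an unadjusted p under 0.05 there were 4, beside 28.7% of all genes. C1qc differed by -1.29 (adjusted p = 0.058), C1qb by -1.24 (adjusted p = 0.0774), Csf1r by -0.78 (adjusted p = 0.0545) and Lyz2 by -1.39 (adjusted p = 0.147). The self-emptying arrays spanned a wide range, 7.48 to 9.45 for C1qb, and overlapped the self-filling arrays. The difference was not the same in both runs that hold the 2 groups: for C1qb it was 0.11 in run 1 and -1.90 in run 3. Weighting the arrays gave a count of 3, leaving out self-emptying replicate 1 also gave 3, and leaving out self-filling replicate 2 gave 2. Of 16 pan-macrophage genes 3 fell and 1 rose (median -0.40), and of 18 resident macrophage genes 1 fell (median -0.39). Of 7 T cell genes 4 fell, of 7 endothelial genes 4 and of 6 adipocyte genes 3. None of 8 smooth muscle or 8 fibroblast genes passed.

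Self-emptying loops against sham ileum gave 0 of 7, where 0.00891% of all genes passed, and 0 also at an unadjusted p under 0.05, beside 7.86% of all genes. The differences lay between -0.63 and -0.25. Sham cecum against sham ileum gave 0 of 7 as well, although 27.8% of all genes passed there, and 0 at an unadjusted p under 0.05, beside 37.1% of all genes. The differences lay between -0.24 and 0.82, the highest being that of Lyz2. These comparisons share the 3 sham ileum arrays.

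In IL10 knockout mice the self-filling loop stood above the self-emptying loop for all 7 genes, the reverse of the wild type direction for 6 of them. Only Cd68 passed, by 1.41 (SE 0.40, adjusted p = 0.0476), beside 1.92% of all genes that rose. Lyz2 was higher by 1.98 (adjusted p = 0.0912), C1qb by 1.27 (adjusted p = 0.141), C1qc by 1.102 (adjusted p = 0.186) and C1qa by 0.78 (adjusted p = 0.203). Csf1r differed by 0.32 (adjusted p = 0.565). All self-filling arrays lay above all self-emptying arrays for 5 of the 7 genes, C1qa, C1qb, C1qc, Lyz2 and Cd163, as they did for 9.53% of all genes, and no self-emptying array detected Cd163. The Cd68 arrays overlapped at 1 point, 5.89 in a self-filling and 5.90 in a self-emptying loop, and the call was lost without self-filling replicate 1 or 2 and without self-emptying replicate 2 or 3. Cd68 was higher by 1.97, 1.14 and 1.12 within runs 1, 2 and 3, with 1 array of each group in a run.

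In TLR4 knockout mice 0 of the 7 genes passed between self-filling and self-emptying loops, where 0.0802% of all genes did, and 0 at an unadjusted p under 0.05, beside 9.03% of all genes. The differences lay between -0.68 and 0.03. Over the mean of the 3 genotypes 0 of 7 passed too, where 13.4% of all genes did, with 0 at an unadjusted p under 0.05 (29.3% of all genes) and differences from -0.15 to 0.26.

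**Figure D2:**
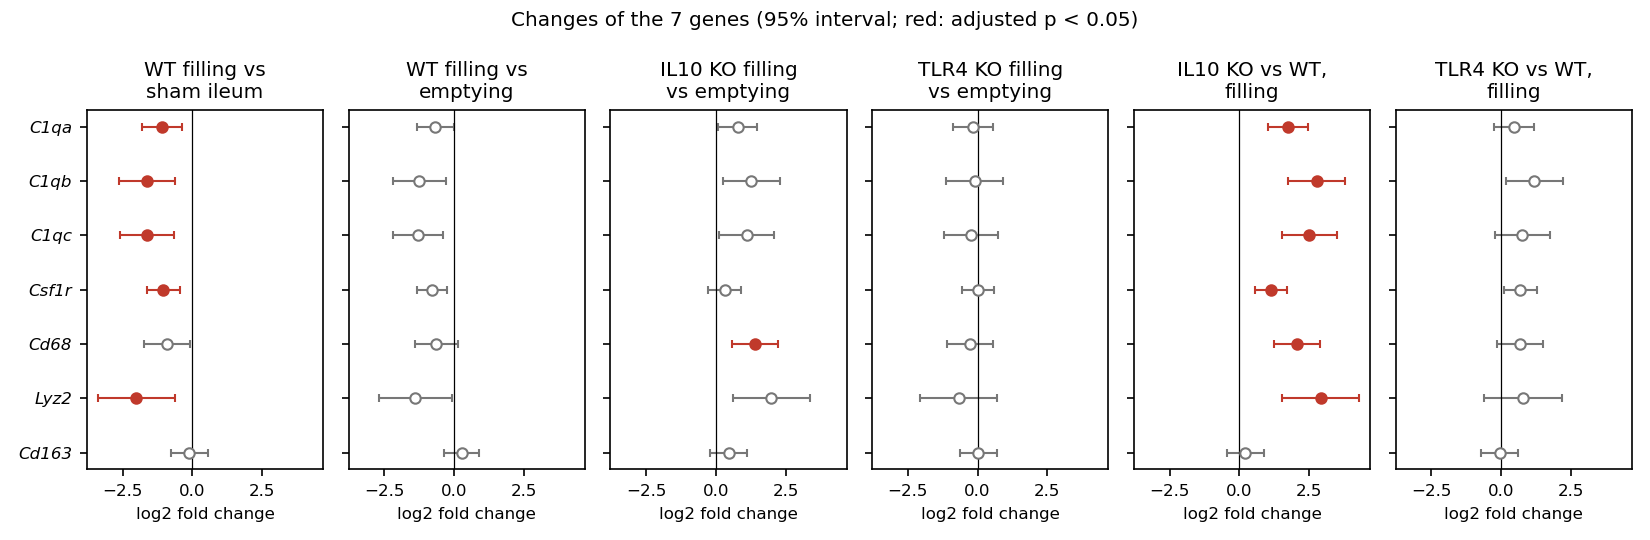
Log2 fold changes of the 7 genes in 6 comparisons, with 95% intervals from limma, filled red where the adjusted p was under 0.05. Wild type self-filling loops lie left of 0 against sham ileum for 5 called genes, and IL10 knockout lies right of wild type self-filling loops for 6.

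The second question is whether self-filling loops differed between genotypes. IL10 knockout self-filling loops exceeded wild type self-filling loops in 6 of the 7 genes, beside 5.95% of all genes that rose. Lyz2 rose by 2.92 (SE 0.67, adjusted p = 0.00577), which is 7.57-fold (95% interval 2.90 to 19.8). C1qb rose by 2.77 (SE 0.49, adjusted p = 0.000664), 6.83-fold (3.38 to 13.8), and C1qc by 2.51 (SE 0.47, adjusted p = 0.00115), 5.71-fold (2.90 to 11.2). C1qa rose by 1.74 (SE 0.34, adjusted p = 0.00181), Cd68 by 2.06 (SE 0.40, adjusted p = 0.00144) and Csf1r by 1.14 (SE 0.28, adjusted p = 0.0101). Cd163 differed by 0.21 (adjusted p = 0.754). For each of the 6 every IL10 knockout array lay above every wild type array, as was so for 12.5% of all genes. Wild type self-filling loops had the lowest mean of the 8 groups for these genes. IL10 knockout self-filling loops were not tested against sham ileum. The means of those 2 groups were 7.57 and 6.90 for C1qa, 9.91 and 8.77 for C1qb and 9.51 and 8.62 for C1qc. They were 6.87 and 6.78 for Csf1r, 6.74 and 5.59 for Cd68 and 11.27 and 10.37 for Lyz2.

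All 6 were called under each of 14 other settings. Leaving out 1 array at a time gave 5 or 6, the 5 being without wild type self-filling replicate 3, where Csf1r had an adjusted p of 0.0632. Within run 1 (1 against 2 arrays) the 6 genes were higher by 0.57 to 2.58, and within run 3 (1 against 1) by 1.28 to 3.62.

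Other myeloid genes rose in the same comparison. Of 16 inflammatory monocyte genes 11 rose, led by the chitinase-like protein Chil3 (4.99), the acute phase gene Saa3 (3.95) and the chemokine Ccl4 (3.39), with a median of 1.85 against -0.02 over all genes. Of 16 pan-macrophage genes 10 rose, led by Fcer1g (2.68), Apoe (2.41) and the Fc receptor Fcgr3 (2.28). Of 18 resident macrophage genes 4 rose, among them Pf4 (1.61), Ms4a7 (1.38) and Lyve1 (0.98). The mean level of this list was 6.11 to 6.38 over IL10 knockout and 5.66 to 6.01 over wild type self-filling arrays. Over sham ileum arrays it was 6.18 to 6.79. For pan-macrophage genes the 3 ranges, in the same order, were 7.61 to 7.85, 6.00 to 6.57 and 6.77 to 7.45. For inflammatory monocyte genes they were 7.28 to 8.23, 5.45 to 5.99 and 5.77 to 5.98. Of 17 phagocyte lysosome genes 3 rose and 1 fell, the largest being Gpnmb (3.40) and the protease Lgmn (1.59).

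Few other complement genes passed. Serping1, the inhibitor of C1r and C1s, rose by 1.95 (adjusted p = 0.0097) and was the 1 gene of 5 tested C1 partners to pass. Of 10 other complement genes, 1 rose, Cfp (1.99), which encodes properdin, the stabiliser of the alternative pathway convertase. Of 8 receptors and regulators, 1 fell, Cd55 (-2.11), which dissolves convertases on host cells. Outside the complement lists, Irf8, a factor of monocyte development, rose by 0.92. It was 1 of 11 tested CSF1 receptor ligands and macrophage factors. The mean level of those 11 was 6.39 to 6.54 over IL10 knockout and 6.16 to 6.23 over wild type self-filling arrays.

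Genes of other leukocytes also rose. Of 8 neutrophil genes 5 rose, led by S100a8 (6.12), Lcn2 (5.87) and S100a9 (5.41), and the mean level of the list was 7.94 to 9.11 over IL10 knockout and 5.38 to 5.97 over wild type self-filling arrays. Of the 14 listed, 13 were on the array and 8 were tested. Ly6g, Ngp, Camp, Cxcr2, Mmp8 and Mpo were not tested. Those of them on the array were detected on fewer than 3 arrays, so the list level rests on the other genes. Of 7 T cell genes 6 rose, led by Cd3d (2.62). The rise was not confined to leukocyte lists. The mean level of 7 endothelial genes was 6.12 to 6.71 over IL10 knockout and 5.41 to 6.01 over wild type self-filling arrays. Fibroblast and smooth muscle list levels overlapped between these groups. Epithelial genes fell in 3 of 7 cases, led by Krt19 (-0.85), with a list level of 11.69 to 11.81 against 12.09 to 12.36. Lyz2 is made by neutrophils as well as macrophages, and the part of these cells in its rise was not tested.

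**Figure D3:**
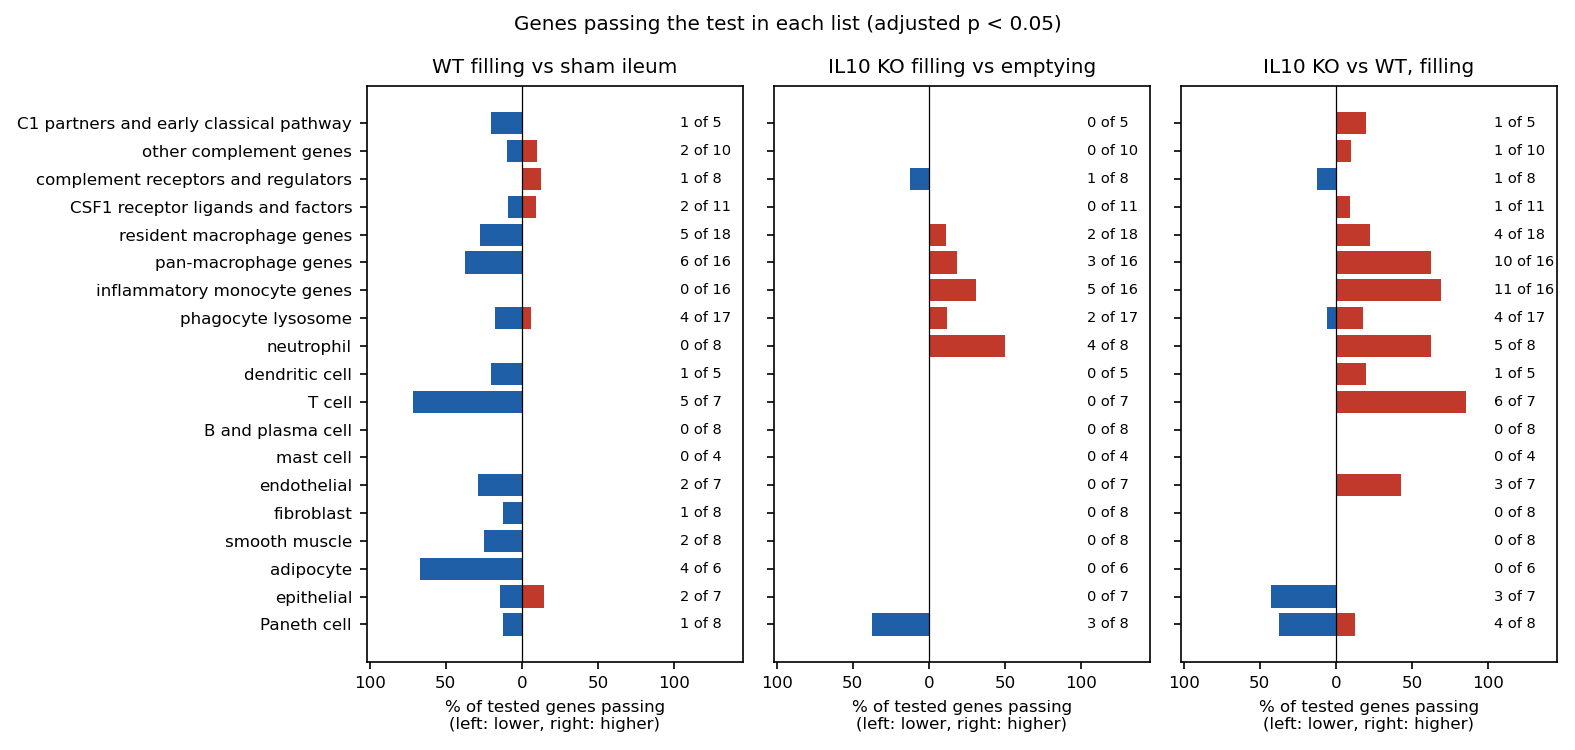
Share of the tested genes of 19 lists that passed the test in 3 comparisons, higher to the right and lower to the left, with the count of passing genes beside each bar. Inflammatory monocyte genes passed in 11 of 16 cases between IL10 knockout and wild type self-filling loops and in 0 of 16 between wild type self-filling loops and sham ileum.

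Between IL10 knockout and wild type self-emptying loops 0 of the 7 genes passed, where 9.55% of all genes did, and 0 at an unadjusted p under 0.05, beside 23.7% of all genes. The differences lay between -0.45 and 0.30. Their direction was not the same in every run: C1qb differed by 1.60 in run 1, 0.25 in run 2 and -0.51 in run 3.

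The change from self-emptying to self-filling was tested directly between the genotypes. It was more positive in IL10 knockout than in wild type mice for C1qb, by 2.52 (SE 0.67, adjusted p = 0.0485), and for Cd68, by 2.04 (SE 0.54, adjusted p = 0.049), beside 1.02% of all genes. C1qc (2.40, adjusted p = 0.0501) and Lyz2 (3.37, adjusted p = 0.0517) lay just outside the threshold, C1qa (1.44, adjusted p = 0.0981) and Csf1r (1.1003, adjusted p = 0.12) farther. The 2 calls lie close to the threshold: over the other settings and left-out arrays the adjusted p ran from 0.0227 to 0.236 for C1qb and from 0.0151 to 0.152 for Cd68. C1qb passed in 3 of the 13 fits that left out 1 array and Cd68 in 5. The count was 0 without wild type self-filling replicate 1 or 3, wild type self-emptying replicate 2 or 3, IL10 knockout self-filling replicate 1 or 2, or IL10 knockout self-emptying replicate 2 or 3. It was 5 without wild type self-emptying replicate 1 and 4 without IL10 knockout self-emptying replicate 1.

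All TLR4 knockout arrays have codes of a series of their own, so this genotype and the array series cannot be told apart. TLR4 knockout self-filling loops gave 0 of 7 against wild type self-filling loops, where 11.3% of all genes passed, and 2 of 7 at an unadjusted p under 0.05, a share near the 26.4% of all genes. C1qb differed by 1.19 (adjusted p = 0.118) and Csf1r by 0.69 (adjusted p = 0.116). Self-emptying loops gave 0 of 7, where 5.64% of all genes passed, and 0 at an unadjusted p under 0.05 (20.7% of all genes), with differences from -0.29 to 0.34 (log2). The change from self-emptying to self-filling, within each array series, gave 0 of 7 between TLR4 knockout and wild type, where 0% of all genes passed, and 1 at an unadjusted p under 0.05 (6.07% of all genes), Csf1r (0.80, adjusted p = 0.811).

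Over the 25 arrays the 3 C1q genes ran together. Pearson's r was 0.97 between C1qb and C1qc, and 0.99 between their deviations from the group means. Without Cd163, the 15 pairs among the other genes ran from 0.58 (Csf1r and Cd68) to 0.97. The arrays share groups and a common normalization, so these are descriptions without a test. The genes most like the mean of the 3 C1q genes over the 25 arrays were Apoe (0.95), Serping1 (0.94), the signalling adaptor Tyrobp (0.93), Fcer1g (0.92) and Ms4a7 (0.91). For Csf1r they were led by Ms4a7 (0.87) and Rora (0.86), for Cd68 by the inhibitory Fc receptor Fcgr2b (0.90) and Tyrobp (0.87), and for Lyz2 by Apoe (0.87) and Cd52 (0.86).

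**Figure D4:**
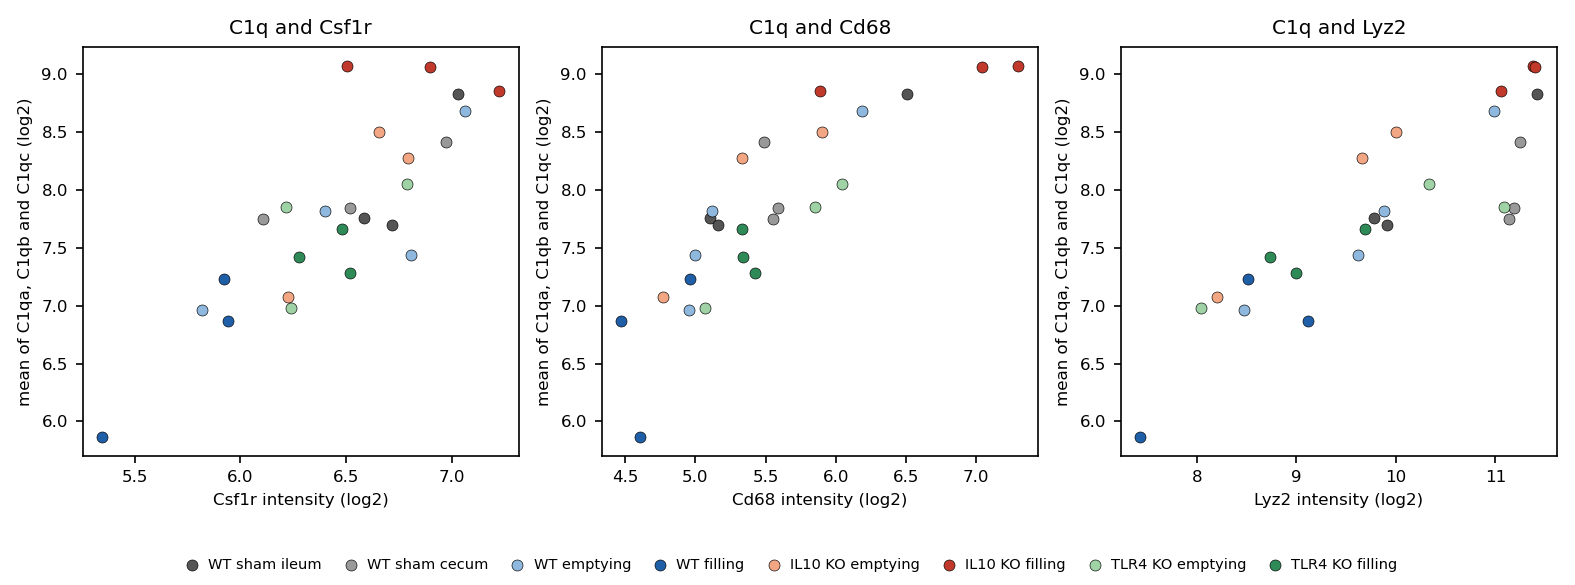
Mean log2 intensity of C1qa, C1qb and C1qc against Csf1r, Cd68 and Lyz2, 1 point per array, coloured by group. The 3 IL10 knockout self-filling arrays hold the highest C1q means and wild type self-filling replicate 3 the lowest.

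Lyz2 has a near-identical neighbour, Lyz1, the lysozyme of Paneth cells, and probes of either may take up transcripts of both. A second Lyz2 probe, listed under Lyzs, had a mean of 6.66 ± 0.81 (SD, n = 3) for wild type and 8.83 ± 0.21 (SD, n = 3) for IL10 knockout mice with self-filling loops, the same direction as the probe that stands for the gene. For TLR4 knockout self-filling loops this probe lay at 6.51 ± 0.48 (SD, n = 3), within the spread of its wild type values. The third was detected on 5 arrays. Between IL10 knockout and wild type self-filling loops, the brightest probe assigned to Lyz1, listed under Lyz, differed by 0.11 (SE 0.09, adjusted p = 0.488). It sat at the top of the normalized range in every ileal group, with means of 14.51 to 14.67, so no direction is read from it. The other Lyz1 probes averaged 13.49 in IL10 knockout against 14.17 in wild type self-filling loops, and 12.90 against 13.38, neither tested on its own. From sham ileum to sham cecum the mean of the probe listed under Lyz went from 14.57 to 12.73. The means of the probes listed under Lyz1 went from 14.54 to 7.33 and from 13.68 to 7.13, each probe against itself. The second Csf1r probe, detected on 10 arrays, lay at 4.42 ± 0.10 (SD, n = 3) for wild type, where no array detected it, and at 5.03 ± 0.30 (SD, n = 3) for IL10 knockout, both with content retained.

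**Figure D5:**
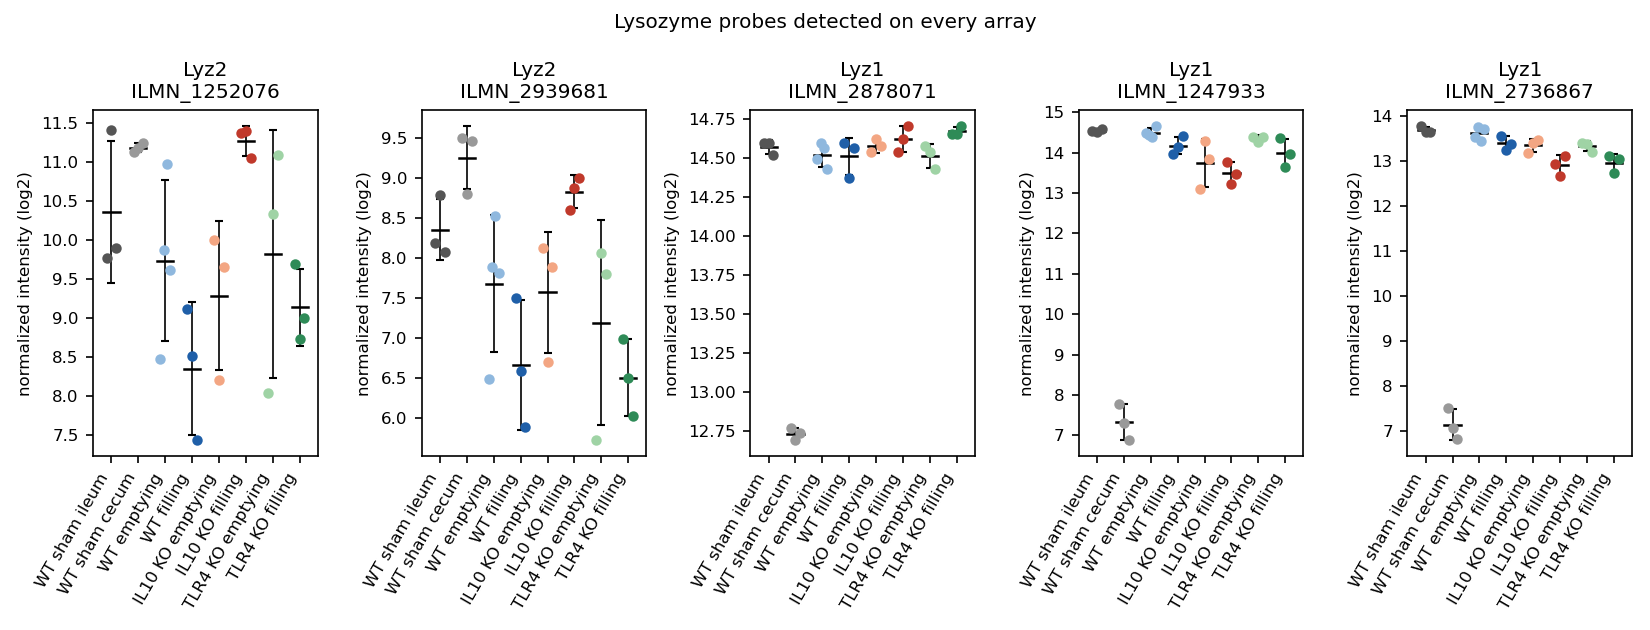
Normalized intensity (log2) of the 2 Lyz2 and 3 Lyz1 probes that every array detected, by group, with the mean (line) and SD (bar, n = 3, or n = 4 for wild type self-emptying loops) and separate axes per probe. Both Lyz2 probes are lower in wild type than in IL10 knockout self-filling loops, and each of the 3 Lyz1 probes is lower in the cecum than in any other group.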

How the data were processed

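Total RNA had been hybridised to Illumina bead arrays, and groups were taken from the sample titles. The description numbers of 4 samples differ from their titles. The authors deposited average bead signals per probe as intensity values without normalization, each with a detection p-value, per the file headers. They also deposited processed log2 values of 17612 probes, for which the submitters' processing notes name limma. Each of these 25 columns correlated best with its own array as normalized here (lowest r 0.99999), and the column medians were 6.02. The software and build behind the signals are not given in the sources used here.

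Signals were corrected by normexp with an offset of 16, quantile-normalized and put on a log2 scale (neqc, limma 3.58.1, R 4.3.3). Probes detected at p under 0.05 on at least 3 arrays were kept (15318). The probe with the highest mean stood for its gene, which gave 11227 genes. Symbols were updated through the RefSeq table, 23788 by Entrez gene number. One model with a mean for every group covered the 25 arrays, with moderated errors and 17 residual degrees of freedom, and p-values were adjusted after Benjamini and Hochberg. The procedure was tested on simulated data. Figures were drawn with matplotlib 3.10.9 in Python 3.11.15. There were 0 unused columns of per-sample values and 0 pairs of arrays with identical signals.

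The genes, lists and comparisons were chosen with earlier results of these data known. Named were all 7 genes, up to 3 passing genes of each list with the largest change, Lyz1 beside Lyz2, and the 5 genes most like each gene, of which the leading ones are given. Alternatives changed the background correction, offset, scaling, filter, probe rule, weights, arrays fitted, blocks and covariates.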

Additional observations from a re-analysis of the deposited data

Results flagged for a closer look

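The change from self-emptying to self-filling loops differed between IL10 knockout and wild type mice for C1qb, by 2.52 on the log2 scale, in a direct limma test of the difference. It also differed for Cd68, by 2.04. Both calls lie close to the threshold (adjusted p = 0.0485 and 0.049). Each passed in 7 of 14 other settings. With 1 array left out, C1qb passed in 3 of 13 fits and Cd68 in 5. In the wild type self-emptying loops, 1 Cd68 value of 6.19 stood far above the others, which lay between 4.95 and 5.12. Only this group, with 4 arrays, was large enough for the outlier test. It was run on 14 probes, those of Lyz1 included, and the Cd68 value was the only one marked. Chance marks about 1 test in 20, and the 14 tests share the same arrays.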

How the results depend on the processing

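The 6 calls between IL10 knockout and wild type self-filling loops held under all 14 alternatives, and 5 to 6 held when 1 array was left out. For wild type self-filling loops against sham ileum the count of 5 became 3 with no filter on dim probes, 1 with a replicate block by description number, 0 with the signal ratio as covariate and 0 without codes 9 to 16, and ran from 0 to 5 over left-out arrays. Against self-emptying loops it became 3 with array weights and ran from 0 to 3. For IL10 knockout self-filling against self-emptying loops the count of 1 became 0 with no filter, with array weights, with only the groups compared, with the replicate block and without codes 9 to 16, and ran from 0 to 1. For TLR4 knockout against wild type self-filling loops the count of 0 became 2 with array weights and 1 with only the groups compared. For the IL10 interaction the count of 2 became 0 with no background correction, no filter, only the groups compared, the replicate block, the signal ratio or without codes 9 to 16, 1 with an offset of 50 or the runs as a fixed block, 4 with the mean of a gene's probes or the runs as a random block, and 5 with array weights, and ran from 0 to 5 over left-out arrays. The cause was not tested.

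Of 2009 values of single genes under other settings, 143 changed sign, and in none of these did the value pass the threshold on either side. The 125 in the 5 comparisons that are given above as a range over the 7 genes (sham cecum against sham ileum, TLR4 knockout self-filling against self-emptying loops, both genotype comparisons of self-emptying loops, and the mean of 3 genotypes) are counted only, and the choice to give these as ranges was made after seeing the sign changes. Directions of single genes in those comparisons are not established. The other 18 are as follows. Cd163 was 0.21 without codes 9 to 16 in wild type self-filling loops against sham ileum and ran from -0.53 to 0.21 over left-out arrays. Its IL10 interaction was -0.059 without codes 9 to 16 and ran from -0.034 to 0.61. Over left-out arrays it ran from -0.15 to 0.49 for wild type self-filling against self-emptying loops, from -0.014 to 0.63 for IL10 knockout against wild type self-filling loops, from -0.42 to 0.38 for TLR4 knockout against wild type self-filling loops and from -0.62 to 0.18 for the TLR4 interaction. C1qa was -0.11 for TLR4 knockout against wild type self-filling loops with the signal ratio as covariate. Lyz2 ran from -0.19 to 1.34 for the TLR4 interaction over left-out arrays. For wild type self-emptying loops against sham ileum, C1qb ran from -0.74 to 0.026, C1qc from -0.66 to 0.066 and Cd68 from -0.57 to 0.18, each above 0 without sham ileum replicate 2.

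Replicate numbers were not taken to pair the samples. In every comparison with 3 pairs of same-numbered arrays at least 1 pair correlated at 0.1 or below, and where description numbers gave only 2 pairs they were too few to decide, also for TLR4 knockout against wild type self-filling loops, where both were above 0.1 (r = 0.13 and 0.24). So the replicate block is given here only. The runs as a fixed block could not be estimated for TLR4 knockout against wild type. Cd163 and the second Csf1r probe lay near background, which limits what their values show.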

Other observations

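In self-emptying loops, where 0 of the 7 macrophage genes passed between IL10 knockout and wild type mice, some neutrophil and inflammatory monocyte genes did. Over all 11227 genes tested, 588 rose and 484 fell in this comparison. Of 8 neutrophil genes 5 rose, led by S100a8 (4.26, adjusted p = 0.00266 in limma) and S100a9 (3.79), which encode the subunits of calprotectin. Of 16 inflammatory monocyte genes 3 rose, Il1b (2.61), Ccl4 (1.40) and Tnf (0.99), which encode secreted mediators of inflammation. Of 16 pan-macrophage genes 1 rose, Cd14 (1.23), the co-receptor for lipopolysaccharide. Of 18 resident macrophage genes 1 fell, Gas6 (-0.97).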
